A study of Mus musculus with 27 samples.

Results

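The genes described here belong to the cytochrome P450 families 1, 2 and 3. They were taken as the genes with a single symbol that begins with Cyp1, Cyp2 or Cyp3, a letter and digits, leaving out Cyp2b9, Cyp2b13 and Cyp2u1. Of 18820 genes with a symbol of their own on the array, 51 met this rule, and 37 of them passed the filter on low and flat signal and were tested. Livers were taken at 28 months of age from 27 males of the strain C57BL/6J, and each liver was run on 1 array. The 7 CR-MF mice were calorie restricted from 9 weeks of age and moved at 24 months to the medium-fat diet, fed ad libitum after a gradual increase. The 7 MF mice had the medium-fat diet (25% of energy from fat) ad libitum from 9 weeks. The 5 CR mice received, from 9 weeks and throughout, daily portions with 30% less energy than the control mice ate on average. The 8 C mice had the control diet AIN-93W ad libitum. All mice were fasted for 4 h, were gavaged with carboxymethyl cellulose and were fasted for another 6 h, and the CR mice alone were given part of their daily portion shortly before the first fast. Mouse names start with BC4 for CR-MF, C4 for MF, B4 for CR and A4 for C.

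Cytochromes P450 of these families are haem enzymes of the endoplasmic reticulum that insert oxygen into drugs, plant compounds, steroids, retinoids and fatty acids. They take electrons from cytochrome P450 reductase, and cytochrome b5 helps some of them. In the liver most lie in the hepatocytes around the central vein, several are induced through the receptors AhR, CAR and PXR, and a number of mouse members differ between the sexes under the pattern of growth hormone secretion. Many of the genes sit in tandem clusters of closely related copies, and 13 of the members map to chromosome 19, 12 to chromosome 7, 10 to chromosome 15, 7 to chromosome 5, 6 to chromosome 4, 2 to chromosome 9 and 1 to chromosome 17.

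The array medians lay between 5.38 and 5.48 on the log2 scale, and the correlation between arrays ranged over 0.975 to 0.991. The array names carry a code that reads as 3 plates and as well rows. The largest plate held 5 CR-MF, 5 MF, 3 CR and 6 C arrays, and each of the others 1 array of each group. All CR-MF arrays carried row H, all MF arrays row G, all C arrays row F, and the CR arrays lay in F (3) and G (2). CR-MF diet and well row therefore cannot be told apart. The summed intensity of 8 hepatocyte markers ranged over 68670 to 76200 in CR-MF, 67930 to 71770 in MF, 68100 to 77870 in CR and 68310 to 71900 in C livers.

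Of the 14 members that were not tested, 13 did not reach an intensity of 20 (4.32 on the log2 scale) on 5 arrays. These were Cyp1a1, Cyp2b19, Cyp2c65, Cyp2c66, Cyp2d12, Cyp2g1, Cyp2j11, Cyp2j12, Cyp2j13, Cyp2t4, Cyp2w1, Cyp3a16 and Cyp3a57. Cyp1a1, the classical gene induced through AhR, measured 3.63 to 4.41 in CR-MF, 3.36 to 4.28 in MF, 3.34 to 4.40 in CR and 3.73 to 4.34 in C livers, so its signal lay near the floor in every group. The 14th, Cyp2e1, which oxidises ethanol and ketone bodies, was left out because it hardly varied. Its log2 intensity was 13.37 to 13.51 in CR-MF, 13.17 to 13.42 in MF, 13.24 to 13.47 in CR and 13.38 to 13.51 in C livers.

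The comparisons below ask how the P450 genes stand in each diet group, and in particular whether mice restricted for most of life and then fed the medium-fat diet resemble mice that always had this diet. A gene was called at an adjusted p under 0.05 in limma, over the 13993 genes that passed the filter. At this threshold 10 P450 genes were called in at least 1 of the 6 contrasts. Between CR-MF and MF, 4 of 37 were higher (10.8%) and 3 lower (8.11%), where 0.55% of all genes were higher and 0.893% lower. Between CR-MF and CR none was called (0 of 37), and 0.236% and 0.364% of all genes were higher and lower. Between CR-MF and C none was higher and 1 lower (2.7%), against 0.136% and 0.164% of all genes. Between MF and CR 1 was higher (2.7%) and 3 lower (8.11%), against 2.8% and 2.62% of all genes. Between MF and C none was called, as for all genes (0% higher and 0% lower). Between CR and C 1 was higher (2.7%) and none lower, against 0.765% and 0.808% of all genes. The contrasts share arrays and are not independent of each other.

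An unadjusted p under 0.05 takes in a wider set of members. In CR-MF against MF livers, 12 of 37 members were higher (32.4%, all genes 6.76%) and 6 lower (16.2%, all genes 7.99%). In CR-MF against C livers, 11 were higher (29.7%, all genes 5.52%) and 6 lower (16.2%, all genes 5.9%). In CR-MF against CR livers, 4 were higher and 4 lower (10.8% each), where 5.4% and 6.9% of all genes were. In MF against CR livers, 2 were higher (5.41%, all genes 12.5%) and 12 lower (32.4%, all genes 11.2%). In MF against C livers, none was higher (all genes 2.67%) and 1 was lower (2.7%, all genes 1.3%). In CR against C livers, 5 were higher (13.5%, all genes 9.27%) and 3 lower (8.11%, all genes 10.5%), shares near those of all genes. Leaving out any 1 mouse, the number of members at this threshold ranged over 16 to 20 for CR-MF against MF, 6 to 11 for CR-MF against CR, 11 to 18 for CR-MF against C, 10 to 17 for MF against CR, 0 to 4 for MF against C and 4 to 11 for CR against C.

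**Figure D1:**
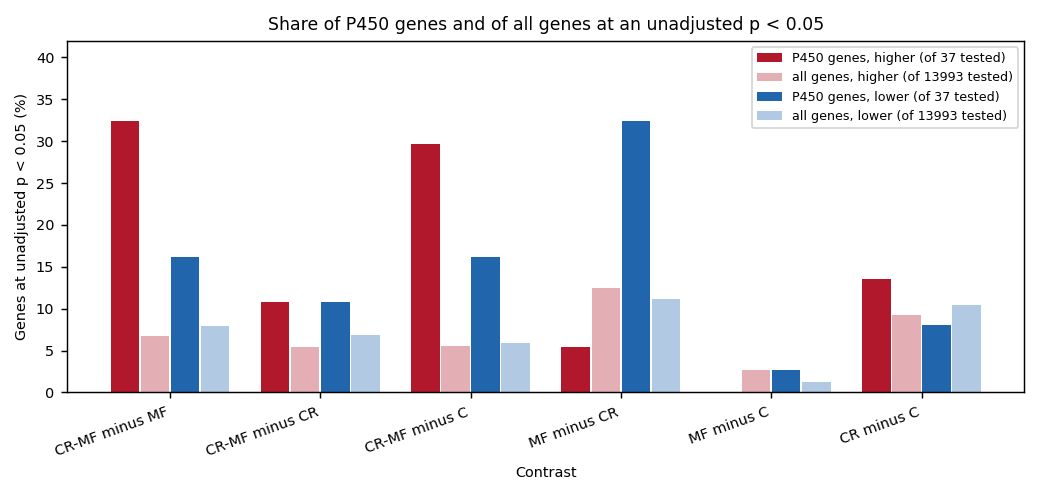
Bars give the percentage of the 37 tested P450 genes (full colour) and of all 13993 tested genes (pale) at an unadjusted p under 0.05, higher (red) and lower (blue) in the first-named group of each contrast. The P450 bars stand highest in CR-MF against MF (32.4% higher), MF against CR (32.4% lower) and CR-MF against C (29.7% higher).

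The median log2 difference over the 37 members was 0.16 for CR-MF minus MF and -0.18 for MF minus CR, where the medians of all genes were -0.0019 and -0.0068. It was 0.069 for CR-MF minus C, 0.0076 for CR-MF minus CR, -0.071 for MF minus C and 0.054 for CR minus C. The members did not move as 1 group. In CR-MF minus MF all 9 tested Cyp2d genes and all 3 tested Cyp2j genes had positive differences, with medians of 0.19 and 0.16, while 3 of the 4 tested Cyp3a genes had negative ones, with a median of -0.25. The 11 tested Cyp2c genes split into 6 positive and 5 negative.

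**Figure D2:**
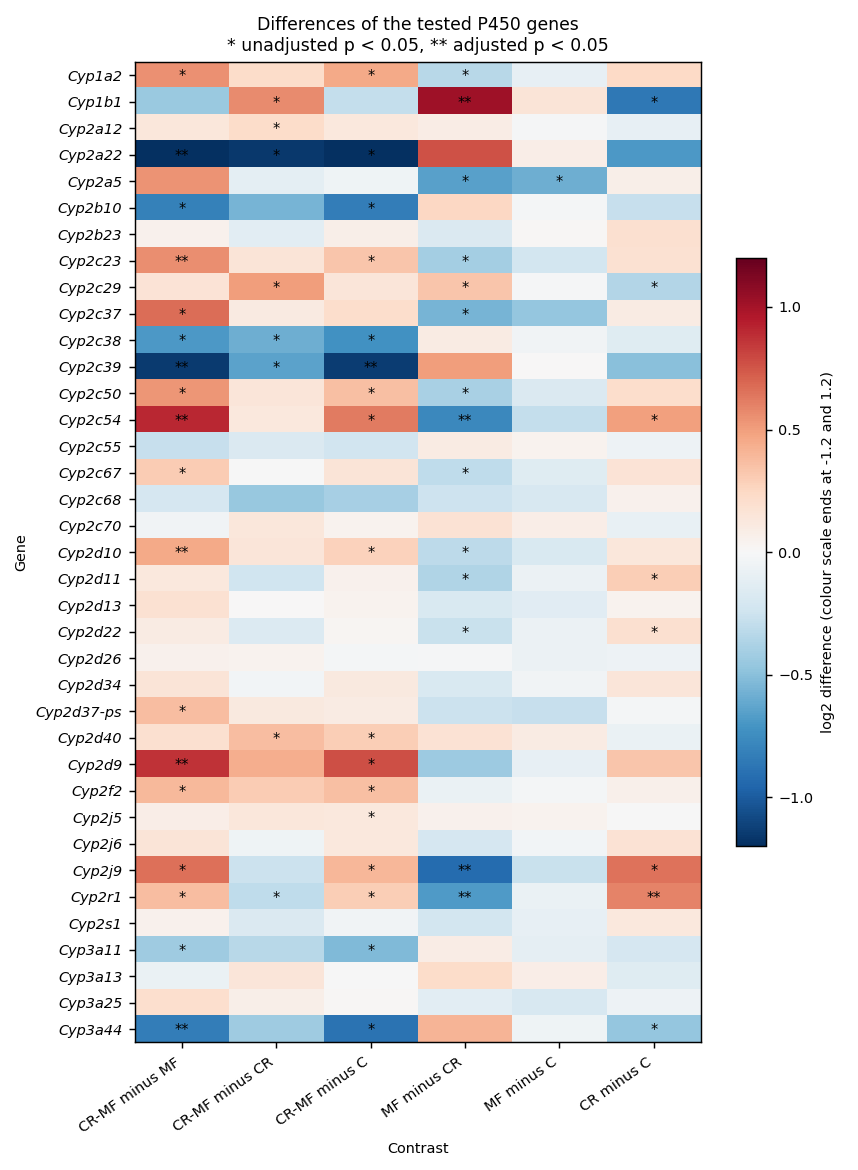
The heat map gives the log2 difference of each of the 37 tested P450 genes (rows) in the 6 contrasts (columns), red where the first-named group was higher and blue where it was lower. A single asterisk marks an unadjusted p under 0.05 and a double one an adjusted p under 0.05, which was reached 13 times, 7 of them in CR-MF minus MF and none in CR-MF minus CR or MF minus C.

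In livers of CR-MF mice Cyp2c23 and Cyp2c54 were higher, and the retinoic acid hydroxylase Cyp2c39 was lower, than in livers of MF mice that ate the same diet. The other 8 of the 11 tested Cyp2c genes did not pass, among them the epoxygenase gene Cyp2c29 (0.16 ± 0.12, adjusted p = 0.562), and 5 of the 11 differences were negative. Cyp2c23, an epoxygenase formerly named Cyp2c44, measured 12.09, 12.42 and 12.49 (lowest, median and highest) in CR-MF livers, against 11.63, 11.71 and 12.07 in MF livers. Every CR-MF mouse lay above every MF mouse. The CR mice measured 12.29, 12.10, 12.01, 12.26 and 12.31, and the C mice 11.43, 12.05 and 12.41. The difference of CR-MF minus MF was 0.56 ± 0.11 on the log2 scale (SE, 7 and 7 mice), a 1.47-fold higher level (limma, adjusted p = 0.0113). It was 0.55 in the largest plate, and 0.55 and 0.60 in the plates with 1 mouse of each group. The call held without any 1 of the 27 mice and ended in the largest plate alone (adjusted p = 0.0863). In whole liver, fewer cells of a type and less RNA per cell cannot be told apart, here and below.

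Cyp2c54, an epoxygenase whose gene lies on the same chromosome, measured 10.61, 11.14 and 11.32 in CR-MF livers, against 8.99, 10.27 and 10.56 in MF livers. The groups did not overlap, and the MF mouse C4_7 lay well below its group. On the log2 scale CR-MF minus MF was 0.91 ± 0.21, or 1.87-fold (adjusted p = 0.0276), with 1.04, 0.28 and 0.88 in the 3 plates. The call ended without C4_7, C4_11, BC4_5, BC4_9 or BC4_13, at adjusted p-values of 0.0519 to 0.0726. The close relatives Cyp2c37 and Cyp2c50 had differences of 0.67 ± 0.25 and 0.53 ± 0.16 (adjusted p = 0.187 and 0.0827). Cyp2c37 measured 11.61, 11.68 and 12.05 in CR-MF livers, against 9.91, 11.55 and 11.71 in MF livers. Its low MF mice were C4_1 (9.91) and C4_7 (9.99). C4_7 was also the lowest MF mouse for Cyp2c50 (9.35), which did not overlap between the groups. Genes of these clusters are so alike that a probe set may also bind transcripts of its neighbours, so the values of single members are uncertain.

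Cyp2c39 measured 6.72, 7.02 and 7.51 in CR-MF livers, against 7.44, 8.42 and 8.80 in MF livers. In 6 of the 7 CR-MF mice it lay below the lowest MF mouse. The CR mice spread widely, at 7.88, 7.25, 8.92, 7.23 and 7.43, and the C mice measured 7.42, 8.29 and 8.63. The log2 difference of CR-MF minus MF was -1.15 ± 0.24, a 2.22-fold lower level (adjusted p = 0.0142), with -1.04, -1.29 and -1.58 in the 3 plates. The call held without any 1 of the 27 mice. It ended in the largest plate alone (adjusted p = 0.0880) and with the animal number as a block (0.0508). Its neighbour Cyp2c38 differed by -0.69 ± 0.19 without passing the threshold (adjusted p = 0.0557), and lay at 9.70, 10.11 and 10.70 in CR-MF livers, against 10.38, 11.05 and 11.19 in MF livers.

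Along chromosome 19 the direction of the difference changed within the tandem cluster. Cyp2c39 and Cyp2c38, next to each other, had lower means in CR-MF livers. Cyp2c37, Cyp2c54 and Cyp2c50, the next block, had higher means there, in part through the same low MF mice. Cyp2c67 (0.30 ± 0.11, adjusted p = 0.187) and Cyp2c68 (-0.21 ± 0.21, adjusted p = 0.686) lie between these blocks. Cyp2c70, which makes muricholic acids from chenodeoxycholic acid in mice, measured 11.68, 11.97 and 12.34 in CR-MF livers, against 11.50, 11.88 and 12.53 in MF livers, and its difference was -0.041 ± 0.14.

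**Figure D3:**
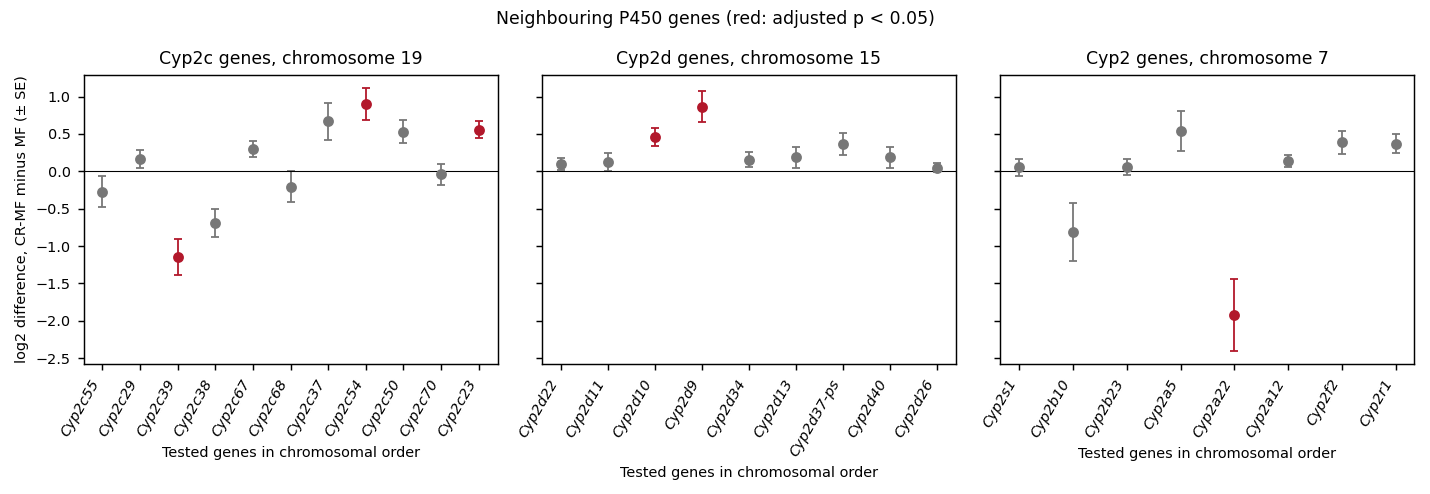
Points give the log2 difference of CR-MF minus MF with its standard error for the tested P450 genes of chromosomes 19, 15 and 7, in the order in which they lie on the chromosome. Red points passed an adjusted p of 0.05, and on chromosome 19 the negative Cyp2c39 (-1.15) and the positive Cyp2c54 (0.91) lie in 1 cluster.

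All 9 tested Cyp2d genes had higher means in CR-MF than in MF livers, and 2 of them passed the test. Among the 9, Cyp2d13 and Cyp2d37-ps are listed as transcribed pseudogenes. Probe sets of such close copies may share transcripts, so the 9 are not separate observations. Cyp2d9, a male-predominant enzyme that hydroxylates testosterone at the 16-alpha position, measured 10.86, 11.15 and 11.45 in CR-MF livers, against 9.88, 10.35 and 10.77 in MF livers. The groups did not overlap. The CR mice measured 11.11, 10.63, 9.77, 11.21 and 10.92, and the C mice 9.49, 10.50 and 10.92. The log2 difference of CR-MF minus MF was 0.87 ± 0.20, a 1.82-fold higher level (adjusted p = 0.0271). It was 1.11 in the plate with 5 mice of each group, and 0.39 and 0.13 in the plates with 1 mouse of each. The call ended without C4_1, C4_9, C4_11, BC4_1, BC4_5, BC4_9 or BC4_13, at adjusted p-values of 0.0561 to 0.0683.

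Cyp2d10, the neighbour of Cyp2d9, measured 9.76, 9.99 and 10.15 in CR-MF livers, against 9.26, 9.55 and 9.76 in MF livers, without overlap. Its log2 difference was 0.46 ± 0.12, or 1.37-fold (adjusted p = 0.0472), with 0.58, 0.28 and 0.00065 in the 3 plates. The call was close to the threshold. It ended without any 1 of 15 mice (A4_1, A4_3, A4_9, A4_13, A4_19, B4_3, C4_1, C4_7, C4_9, C4_11, BC4_1, BC4_3, BC4_5, BC4_9 and BC4_13), at adjusted p-values of 0.0513 to 0.109. The other 7 tested Cyp2d genes had positive differences that did not pass, and the lowest difference of the 9 was 0.051.

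The starts of 5 of the genes called between CR-MF and MF are printed here. The neighbouring copies Cyp2d9 and Cyp2d10, on opposite strands, were called higher in CR-MF livers, and Cyp2c39, Cyp3a44 and Cyp2a22 lower. Each sequence runs 5′ to 3′ on the strand of the gene, with 250 bases before the start of the transcript and 50 from it on (RefSeq, build GRCm38.p6). Capitals mark matches on either strand to TATAAA, the core of the TATA box, and to GGNCAAAG, a part of the direct repeat that nuclear receptors such as HNF4A bind. They lie at chr15:82452127-82452426 (plus strand, Cyp2d9), chr15:82407145-82407444 (minus strand, Cyp2d10), chr19:39347096-39347395 (plus strand, Cyp2c39), chr5:145805825-145806124 (minus strand, Cyp3a44) and chr7:26939337-26939636 (minus strand, Cyp2a22).
Cyp2d9: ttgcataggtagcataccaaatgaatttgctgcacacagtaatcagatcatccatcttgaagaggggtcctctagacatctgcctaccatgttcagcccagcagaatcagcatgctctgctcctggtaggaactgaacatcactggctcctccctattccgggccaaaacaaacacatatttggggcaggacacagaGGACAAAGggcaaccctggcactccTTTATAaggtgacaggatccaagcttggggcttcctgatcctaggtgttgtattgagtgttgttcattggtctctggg
Cyp2d10: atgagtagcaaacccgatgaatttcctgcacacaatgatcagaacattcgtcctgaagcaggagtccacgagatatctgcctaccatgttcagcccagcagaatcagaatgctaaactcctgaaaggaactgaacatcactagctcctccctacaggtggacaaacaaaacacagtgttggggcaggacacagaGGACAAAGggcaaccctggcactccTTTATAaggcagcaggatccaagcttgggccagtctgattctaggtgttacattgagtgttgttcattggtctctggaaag
Cyp2c39: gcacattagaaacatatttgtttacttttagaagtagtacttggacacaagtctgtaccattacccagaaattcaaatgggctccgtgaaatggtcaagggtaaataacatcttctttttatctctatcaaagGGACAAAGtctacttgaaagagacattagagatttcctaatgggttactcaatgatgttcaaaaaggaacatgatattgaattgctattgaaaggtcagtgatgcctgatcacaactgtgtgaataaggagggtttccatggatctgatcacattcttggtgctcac
Cyp3a44: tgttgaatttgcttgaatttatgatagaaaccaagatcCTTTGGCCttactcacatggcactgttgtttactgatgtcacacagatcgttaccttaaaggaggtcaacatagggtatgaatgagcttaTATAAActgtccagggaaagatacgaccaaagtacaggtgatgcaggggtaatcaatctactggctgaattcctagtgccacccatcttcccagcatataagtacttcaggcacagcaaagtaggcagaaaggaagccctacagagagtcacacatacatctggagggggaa
Cyp2a22: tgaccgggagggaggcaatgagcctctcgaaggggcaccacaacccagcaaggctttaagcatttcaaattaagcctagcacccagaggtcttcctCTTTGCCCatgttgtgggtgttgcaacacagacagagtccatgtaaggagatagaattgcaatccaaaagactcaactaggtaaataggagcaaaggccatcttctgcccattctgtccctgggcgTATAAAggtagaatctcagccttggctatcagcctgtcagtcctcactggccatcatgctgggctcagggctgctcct

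The promoters of Cyp2d9 and Cyp2d10 were 82.9% identical over their alignment (252 of 304 columns), while no other pair among the 8 called genes with a RefSeq promoter exceeded 48.4%. Both carry the same pair of matches, with TATAAA beginning 28 bases upstream of the start in Cyp2d9 and 31 in Cyp2d10, and GGNCAAAG 53 and 56 bases upstream. In Cyp2a22 these lay 28 and 154 bases upstream, in Cyp3a44 122 and 212 bases upstream, and in Cyp2c39 only GGNCAAAG was found, farther upstream than in the Cyp2d genes and nearer than in Cyp2a22. GGNCAAAG was present in 6 of the 8 promoters of called genes, in 10 of 43 promoters of the family (23.3%) and in 5.55% of all 27025 promoters. TATAAA was present in 4 of the 8, in 51.2% of the family and in 14.2% of all promoters. The AhR core GCGTG was present in 20.9% of the family and 32.5% of all promoters, and of the called genes Cyp1b1, Cyp2j9 and Cyp2r1 held it. AGGTCA, the half-site of many nuclear receptors, was present in 32.6% of the family against 16% of all promoters, and the forkhead motif TGTTTAC in 14% against 3.52%. TTCNNNGAA, the motif of STAT factors, was present in 4.65% against 8.42%, and in none of the 8. Both strands were searched, and motifs may overlap. Genes that fell and genes that rose between CR-MF and MF livers both held GGNCAAAG. Cyp2c23 and Cyp2c54, which were also higher in CR-MF livers, had no RefSeq promoter at hand. The close copies Cyp2d9 and Cyp2d10 count separately among the 6. The motifs were chosen after the calls were seen, and no test was made of these shares.

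Cyp3a44, a female-predominant member of the steroid and drug hydroxylating Cyp3a genes, measured 5.04, 5.23 and 5.60 in CR-MF livers, against 5.62, 5.94 and 6.73 in MF livers. Its groups stood next to each other without overlap. The CR mice measured 5.94, 5.72, 5.99, 5.22 and 5.53, and the C mice 5.17, 6.17 and 6.83. On the log2 scale CR-MF minus MF was -0.83 ± 0.21, a 1.78-fold lower level (adjusted p = 0.0402), with -0.60, -1.68 and -1.14 in the 3 plates. The call ended without C4_5, C4_11, C4_15, BC4_1, BC4_3, BC4_5, BC4_9 or BC4_13, at adjusted p-values of 0.0533 to 0.0893. Cyp3a11, the main inducible enzyme of this subfamily and a target of PXR, measured 11.23, 11.57 and 11.92 in CR-MF livers, against 11.29, 12.14 and 12.45 in MF livers (difference -0.42 ± 0.16, adjusted p = 0.198).

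Cyp2a22 had the widest spread of the members. It measured 6.17, 6.85 and 7.71 in CR-MF livers, against 6.08, 9.37 and 10.42 in MF livers, and the groups overlapped through the MF mouse C4_1, the lowest of all. The CR mice measured 8.18, 8.95, 8.47, 7.69 and 6.56, and the C mice 7.64, 8.63 and 9.83. This gave a log2 difference of -1.92 ± 0.48, a 3.79-fold lower level (adjusted p = 0.0402), with -1.49, -2.71 and -3.31 in the 3 plates. The call ended without C4_5, C4_11, C4_13, C4_15, BC4_1, BC4_5, BC4_9, BC4_13 or BC4_15, at adjusted p-values of 0.0541 to 0.0852. Its neighbour Cyp2a5, the coumarin hydroxylase, did not pass, and its mean differed in the other direction (0.54 ± 0.27, adjusted p = 0.347). Cyp2a5 measured 11.59, 11.76 and 12.17 in CR-MF livers, against 9.71, 11.81 and 12.10 in MF livers. The medians were thus close, and the MF mice C4_1 (9.71), C4_9 (10.38) and C4_7 (10.89) lay low.

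Cyp1a2 and Cyp2j9 lay close to the threshold between CR-MF and MF. Cyp1a2, the pericentral AhR target that metabolises caffeine, measured 11.31, 11.60 and 11.96 in CR-MF livers, against 10.56, 11.05 and 11.59 in MF livers (difference 0.55 ± 0.14, adjusted p = 0.0515). Cyp2j9, an arachidonic acid enzyme described in mouse brain, measured 7.68, 8.51 and 8.98 in CR-MF livers, against 7.57, 7.78 and 8.07 in MF livers (0.66 ± 0.18, adjusted p = 0.0533). Cyp2f2 and Cyp2b10 lay farther from it. Cyp2f2, a periportal enzyme that activates naphthalene, measured 12.80, 12.94 and 13.01 in CR-MF livers, against 11.68, 12.62 and 12.81 in MF livers (0.39 ± 0.15, adjusted p = 0.211). Cyp2b10, the classical CAR target, measured 3.93, 4.75 and 5.35 in CR-MF livers, against 4.30, 5.29 and 6.43 in MF livers (-0.81 ± 0.39, adjusted p = 0.330). The count of 7 calls in this contrast became 2 or 3 without C4_11, BC4_1, BC4_5, BC4_9 or BC4_13, and it was 1 in the largest plate alone (Cyp2d9) and 2 when all genes were tested without the filter (Cyp2c23 and Cyp2c39). With plate as a block the calls of Cyp2a22 and Cyp3a44 ended, at adjusted p-values of 0.0515 and 0.0530.

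**Figure D4:**
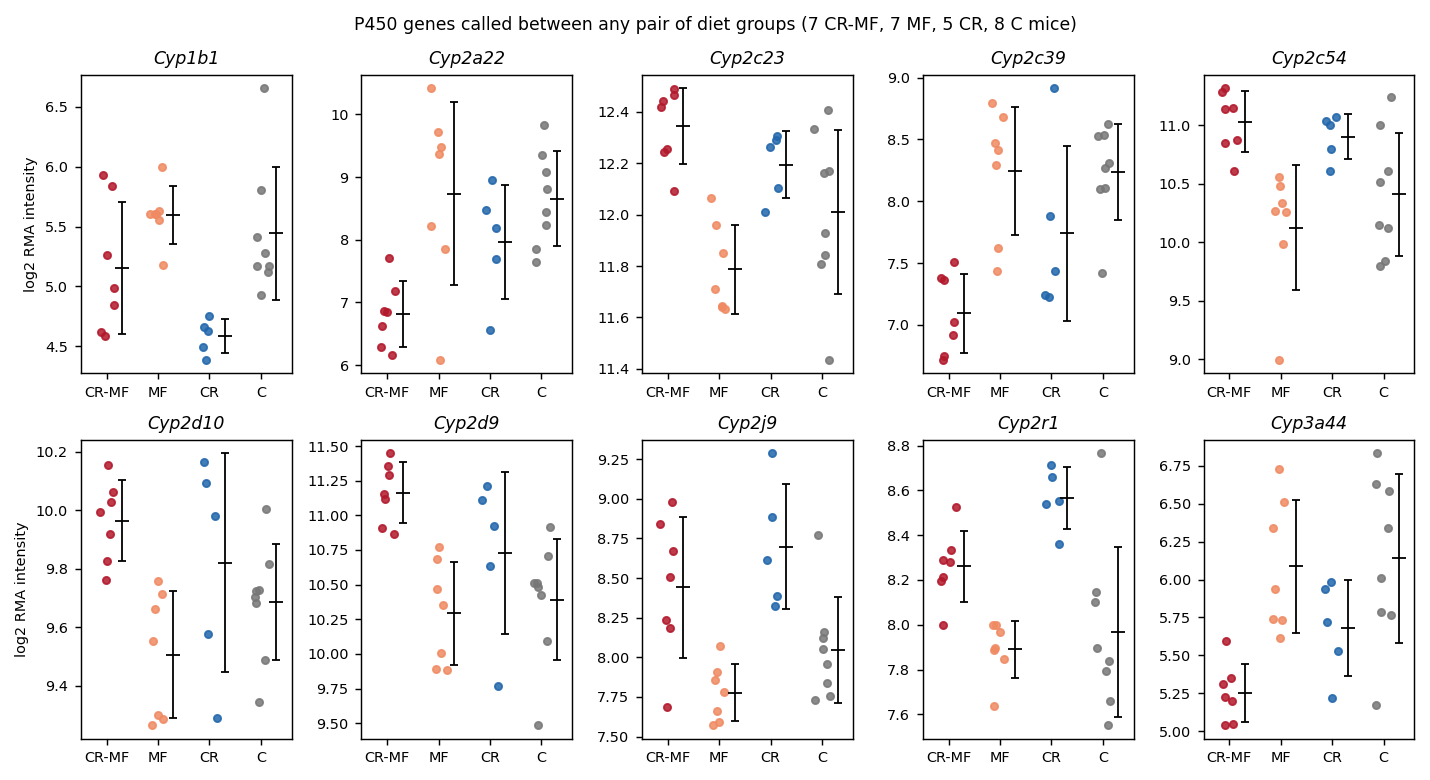
Each point is the log2 intensity of 1 mouse for the 10 P450 genes called in at least 1 contrast, in CR-MF, MF, CR and C livers, with the group mean and its standard deviation as a bar. Cyp2c23, Cyp2c54, Cyp2d9, Cyp2d10 and Cyp3a44 do not overlap between CR-MF and MF mice. Cyp1b1, Cyp2c54, Cyp2j9 and Cyp2r1 do not overlap between MF and CR mice. The genes shown were picked by their calls, and the share of all genes without overlap was not counted. Cyp2c50, not called and not shown, does not overlap between CR-MF and MF mice either.

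Of the members the single one called between CR-MF and C livers was Cyp2c39. It measured 6.72, 7.02 and 7.51 in CR-MF livers, against 7.42, 8.29 and 8.63 in C livers, and 6 of the 7 CR-MF mice lay below the lowest C mouse. The log2 difference was -1.14 ± 0.23, a 2.21-fold lower level (adjusted p = 0.0255), with -1.05, -1.03 and -1.81 in the 3 plates. The call ended without A4_1, A4_19, BC4_1, BC4_5 or BC4_13, at adjusted p-values of 0.0508 to 0.0710. Cyp3a44 (-0.89 ± 0.20), Cyp2c38 (-0.73 ± 0.18), Cyp2a22 (-1.84 ± 0.47) and Cyp2d9 (0.77 ± 0.20) followed at adjusted p-values of 0.0534, 0.0698, 0.0869 and 0.0891. Cyp2c54 (0.62 ± 0.21), Cyp1a2 (0.45 ± 0.14) and Cyp3a11 (-0.53 ± 0.16) had adjusted p-values of 0.251, 0.200 and 0.160. These values share the CR-MF arrays with the values against MF livers.

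No member was called between CR-MF and CR livers. Cyp2c29, an epoxygenase of the Cyp2c cluster, measured 11.62, 12.15 and 12.48 in CR-MF livers, against 11.56, 11.37, 11.85, 11.87 and 11.38 in CR livers, and 6 of the 7 CR-MF mice lay above the highest CR mouse (difference 0.50 ± 0.13, adjusted p = 0.0824). Cyp1b1 differed by 0.57 ± 0.24 (adjusted p = 0.322) and Cyp2d40 by 0.37 ± 0.15 (adjusted p = 0.312). On the lower side lay Cyp2a22 (-1.16 ± 0.53), Cyp2c39 (-0.65 ± 0.26) and Cyp2c38 (-0.59 ± 0.20), with adjusted p-values of 0.369, 0.291 and 0.194. The 95% interval ran over -1.19 to -0.11 for Cyp2c39 and over 0.23 to 0.77 for Cyp2c29, so levels alike in CR-MF and CR livers were not shown. With quantile normalisation, or without the mouse BC4_11, Cyp2c29 was called.

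Between MF and CR livers 1 member rose and 3 fell. Cyp1b1, an AhR target that hydroxylates oestradiol and is found in hepatic stellate cells, measured 5.18, 5.61 and 6.00 in MF livers, against 4.39, 4.75, 4.50, 4.62 and 4.66 in CR livers. Every MF mouse lay above every CR mouse. The CR values lay just above the filter limit of 4.32, and with the filter at an intensity of 100 Cyp1b1 was not tested. CR-MF mice measured 4.58, 4.99 and 5.93 and C mice 4.93, 5.22 and 6.66. MF minus CR was 1.01 ± 0.24 on the log2 scale, a 2.02-fold higher level (adjusted p = 0.0166), with 1.14, 0.98 and 0.52 in the 3 plates, and the call held without any 1 of the 27 mice. With well row as a block, which leaves the MF mice to be set against the 2 CR mice of row G, the difference was 0.96 and the call ended (adjusted p = 0.107). A further transcript cluster of Cyp1b1 was above an intensity of 20 on 1 array only and differed by -0.097, and with the mean of both clusters the difference was 0.46 and still passed (adjusted p = 0.0456).

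Of the 5 stellate cell markers Pdgfrb rose in MF against CR livers (0.65 ± 0.16, adjusted p = 0.0195), at 7.77, 8.16 and 8.36 in MF livers against 7.31, 7.60, 7.50, 7.41 and 7.46 in CR livers. The summed intensity of the 5 ranged over 1777 to 2541 in MF and 1803 to 2150 in CR livers. Ccr2, a receptor of recruited monocytes, rose as well (0.98 ± 0.27, adjusted p = 0.0370), 1 of 4 measured markers of recruited myeloid cells, whose sum ranged over 170 to 659 in MF livers and reached at most 142 in CR livers. The part of these cells in the Cyp1b1 difference was not tested.

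Cyp2j9 measured 7.57, 7.78 and 8.07 in MF livers, against 9.29, 8.39, 8.32, 8.89 and 8.61 in CR livers, without overlap. The log2 difference of MF minus CR was -0.92 ± 0.19, a 1.89-fold lower level (adjusted p = 0.00848), with -0.91, -0.98 and -0.83 in the 3 plates. Cyp2r1, the enzyme that hydroxylates vitamin D at position 25, measured 7.64, 7.89 and 8.00 in MF livers, against 8.54, 8.66, 8.72, 8.55 and 8.36 in CR livers. Its groups did not overlap, and the difference was -0.68 ± 0.14, a 1.60-fold lower level (adjusted p = 0.00696), with -0.77, -0.55 and -0.46 in the 3 plates. Both calls held without any 1 of the 27 mice. With well row as a block both ended, with differences of -0.97 for Cyp2j9 (adjusted p = 0.0509) and -0.57 for Cyp2r1 (0.154). The Cyp2j9 call also ended in the largest plate alone (0.0828).

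Cyp2c54 measured 8.99, 10.27 and 10.56 in MF livers, against 11.07, 10.61, 10.80, 11.0004 and 11.04 in CR livers. The groups did not overlap, and the difference was -0.78 ± 0.23, a 1.71-fold lower level that just passed (adjusted p = 0.0495). The call was kept only without A4_13, A4_17, A4_19, A4_21, B4_5, C4_9, C4_13, BC4_3 or BC4_11, and ended without any 1 of the other 18 mice, at adjusted p-values of 0.0502 to 0.113. It also ended with well row as a block, where the difference was -0.89 (adjusted p = 0.195), with plate as a block (0.0615), in the largest plate alone (0.231), with quantile normalisation (0.0555), without the filter (0.0961), without the trend in eBayes (0.0522) and with the mean of a gene's transcript clusters (0.0510). Cyp2c23 lay just beyond the threshold at -0.41 ± 0.12 (adjusted p = 0.0506). The Cyp2d genes leaned the same way, with 8 of 9 negative and a median of -0.25, among them Cyp2d22, the gene closest to human CYP2D6 (-0.27 ± 0.090, adjusted p = 0.0785). Cyp1a2 differed by -0.33 ± 0.16 (adjusted p = 0.201) and Cyp2a5 by -0.65 ± 0.29 (adjusted p = 0.170).

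Between CR and C livers Cyp2r1 rose. It measured 8.54, 8.66, 8.72, 8.55 and 8.36 in CR livers, against 7.55, 7.87 and 8.77 in C livers, and the C mouse A4_9 lay above every CR mouse. The log2 difference of CR minus C was 0.60 ± 0.13, a 1.51-fold higher level (adjusted p = 0.0253). It was 0.83 in the largest plate, and -0.21 and 0.21 in the plates with 1 mouse of each group. The call ended without A4_17, B4_1, B4_7 or B4_13, at adjusted p-values of 0.0506 to 0.0581, without the filter (0.050004), and with well row as a block, where the difference was 0.67 (0.0991). In CR-MF livers Cyp2r1 measured 8.00, 8.28 and 8.53, between these groups, and differed by -0.30 ± 0.14 from CR and by 0.29 ± 0.12 from C livers (adjusted p = 0.349 and 0.353).

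Cyp1b1 and Cyp2j9 came close to the threshold between CR and C livers. Cyp1b1 measured 4.39, 4.75, 4.50, 4.62 and 4.66 in CR livers, against 4.93, 5.22 and 6.66 in C livers, so every CR mouse lay below every C mouse (-0.86 ± 0.24, adjusted p = 0.0564). These CR values lay just above the filter limit of 4.32. Cyp2j9 measured 9.29, 8.39, 8.32, 8.89 and 8.61 in CR livers, against 7.73, 8.00 and 8.77 in C livers (0.65 ± 0.19, adjusted p = 0.0655). Ccr2, 1 of 4 measured markers of recruited myeloid cells, fell in CR against C livers (-1.10 ± 0.27, adjusted p = 0.0326). The sum of the 4 reached at most 142 in CR livers and ranged over 140 to 491 in C livers. Pdgfrb, 1 of 5 stellate markers, differed by -0.40 ± 0.16 (adjusted p = 0.147). The stellate sum ranged over 1803 to 2150 in CR livers, within the 1636 to 2233 of C livers. The part of these cells in the Cyp1b1 difference between CR and C livers was not tested.

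Between MF and C livers no member was called. The 1 member at an unadjusted p under 0.05 was Cyp2a5, which measured 9.71, 11.81 and 12.10 in MF livers, against 11.17, 11.90 and 12.28 in C livers (-0.59 ± 0.26, adjusted p = 1.00). The largest differences on either side were -0.59 for Cyp2a5 and 0.16 for Cyp1b1. Of the 37 tested members 28 had a negative difference, with a median of -0.071 over the members and 0.0029 over all genes. The share of all genes with a negative difference was not counted. Close copies among the members are not separate observations.

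Genes that serve or control these enzymes were read in the same fits. Of 12 measured genes of electron transfer and haem synthesis, 1 was called in any contrast, between MF and CR livers, where 2.62% of all genes were called lower. This was Fech, the ferrochelatase that inserts iron into haem, which measured 8.85, 9.08 and 9.16 in MF livers, against 9.51, 9.30, 9.34, 9.44 and 9.47 in CR livers (-0.39 ± 0.071, adjusted p = 0.00315). None of 9 measured xenobiotic receptor genes was called in any contrast. Ahr measured 9.42, 9.61 and 10.47 in CR-MF livers, 9.39, 9.67 and 10.07 in MF livers, 9.77, 8.96, 9.82, 9.43 and 9.49 in CR livers, and 8.78, 9.498 and 10.39 in C livers. Nr1i2, which encodes PXR, measured 9.63, 10.14 and 10.52 in CR-MF, 9.84, 10.28 and 10.68 in MF, 10.42, 10.12, 10.45, 10.42 and 10.55 in CR, and 10.06, 10.31 and 10.48 in C livers. All groups overlapped for both receptors.

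Of 17 measured further transcription factors 1 was called. Rora, a nuclear receptor, fell in MF against CR livers (-0.41 ± 0.088, adjusted p = 0.00895; all genes called lower, 2.62%) and rose in CR against C livers (0.49 ± 0.086, adjusted p = 0.00550; all genes called higher, 0.765%). None of the 3 measured AhR-responsive genes outside the P450s was called, and their summed intensity ranged over 525 to 1004 in CR-MF, 1045 to 1193 in MF, 883 to 1123 in CR and 969 to 1165 in C livers. Among the 2 tested members of a list of female-biased P450 genes, Cyp3a44 fell in CR-MF against MF livers and Cyp2b10 did not pass.

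Single markers of other liver cells were called in some of the same contrasts. In CR-MF against MF livers Epcam, a cholangiocyte marker, fell (-0.78 ± 0.18, adjusted p = 0.0216), 1 of 4 tested markers of that list, and the sum of the 5 measured ones ranged over 237 to 361 in CR-MF and 224 to 385 in MF livers. Colec11, 1 of 5 stellate markers, fell as well (-0.51 ± 0.12, adjusted p = 0.0338), and the sum of the 5 ranged over 1443 to 2370 in CR-MF and 1777 to 2541 in MF livers. Cps1, the hepatocyte enzyme that starts the urea cycle, fell in MF against CR livers (-0.29 ± 0.078, adjusted p = 0.0287), 1 of 4 tested hepatocyte markers. No marker of Kupffer, endothelial, B, plasma or T cells or adipocytes was called in any contrast, and the adipocyte gene Adipoq was below an intensity of 20 on every array. The part of these cells in the P450 differences was not tested.

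Within the diet groups the called genes varied together in part. For the 45 pairs of the 10 called genes, the deviations of the 27 mice from their diet group mean were correlated, with two-sided permutation within groups and Benjamini-Hochberg adjustment over the 45 pairs. One pair passed by both measures. Cyp2c23 and Cyp2c54 had a Pearson r of 0.676 (p = 0.00077, adjusted 0.0347) and a Spearman rho of 0.642 (p = 0.00157, adjusted 0.0303). The r was 0.574 without the 2 mice farthest from the median of Cyp2c23, and 0.783 over the 19 mice of the largest plate. Cyp2d9 and Cyp2d10 had an r of 0.500 (p = 0.0324, adjusted 0.133) and a rho of 0.659 (p = 0.00159, adjusted 0.0303). Cyp2c39 and Cyp2r1 had an r of 0.445 (p = 0.0116, adjusted 0.101) and a rho of 0.573 (p = 0.00202, adjusted 0.0303). Cyp2c54 and Cyp2d10 had an r of 0.502 (p = 0.00274, adjusted 0.0519) and a rho of 0.515 (p = 0.00379, adjusted 0.0426). Cyp2c39 and Cyp3a44, which both fell in CR-MF against MF livers, had an r of 0.540 (p = 0.00461, adjusted 0.0519) and a rho of 0.440 (p = 0.0331, adjusted 0.160). Cyp2a22 and Cyp2c23, which moved in opposite directions between these groups, had an r of -0.507 (p = 0.00446, adjusted 0.0519) and a rho of -0.415 (p = 0.0426, adjusted 0.160).

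**Figure D5:**
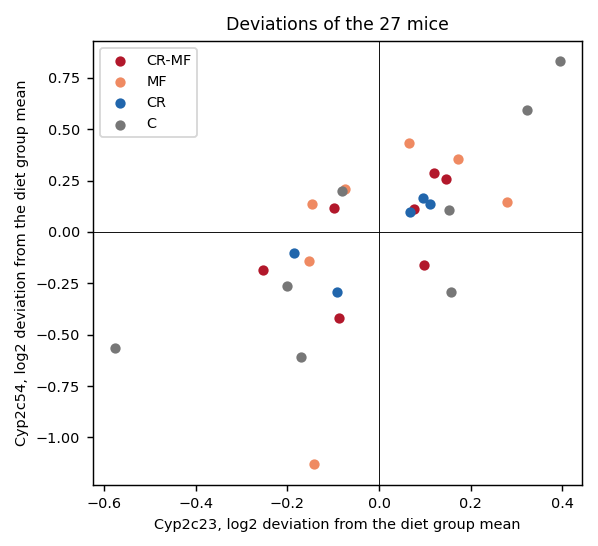
Each point is 1 of the 27 mice, coloured by diet group, with the log2 deviation of Cyp2c23 from its diet group mean on the horizontal axis and that of Cyp2c54 on the vertical axis. Mice above their group mean for Cyp2c23 tended to lie above it for Cyp2c54 (r = 0.676).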

How the data were processed

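Liver RNA was hybridised to the Affymetrix Mouse Gene 1.1 ST array. The authors deposited log2 intensities of transcript clusters, computed by Robust Multiarray Average (RMA, no version given in the sources used here). Of 35556 clusters, 21218 carried 1 gene symbol; for a gene with several, the one with the highest mean was used. All 51 P450 symbols matched RefSeq (GRCm38.p6) by gene ID. In these families, 5 clusters with several symbols and Cyp2ab1, whose symbol has a pair of letters, were not used, nor were Por and Nr1i3, for which no cluster with 1 symbol was at hand.

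To be kept, a gene needed 5 arrays above an intensity of 20 and an interquartile range over 0.1, and 13993 genes met this. Group means were compared over all 27 arrays with limma 3.58.1 in R 4.3.3 (lmFit, then eBayes with its trend option, on 23 residual degrees of freedom) and Benjamini-Hochberg adjustment over the kept genes. The fits were tested on simulated data. Correlations used 100000 permutations (Python 3.11.15, numpy 2.4.6), and promoters were aligned with Biopython 1.88. Every mouse is a biological replicate, and their number limits the precision. The members and the gene lists were chosen with earlier results of these data known, and the motifs after the calls were seen. Named genes are every member or list gene past an adjusted p of 0.05, the members with the 3 highest and the 3 lowest differences in each contrast, and Cyp1a1, Cyp1a2, Cyp1b1, Cyp2e1, Cyp2f2, Cyp3a11, Cyp2b10, Ahr and Nr1i2. Other members are named as neighbours or relatives of these, after their values were seen. Alternatives were quantile normalisation, median centring, no filter, a filter at an intensity of 100, eBayes without a trend, an intensity-based moderated statistic (IBMT), the mean of a gene's clusters, plate as a block or 1 plate alone, the animal number as a block, and leaving out each mouse. Well row as a block, over the C, CR and MF arrays, and leaving out BC4_11 and BC4_15 together were chosen after seeing the data.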

Additional observations from a re-analysis of the deposited data

Results flagged for a closer look

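In 10 of 124 combinations of a named gene and a diet group, 1 mouse lay far from the others of its group by Dixon's test, where chance gives about 1 in 20. The C mouse A4_5 was lowest for Cyp2a5 (11.17, nearest mouse 11.79) and Cyp2c39 (7.421, nearest 8.098) and highest for Cyp2j9 (8.772, nearest 8.163). The MF mouse C4_7 was lowest for Cyp2c54 (8.994, nearest 9.983) and Cyp2r1 (7.638, nearest 7.848). Cyp2f2 was low in the MF mouse C4_9 (11.68, nearest 12.43) and in the C mouse A4_9 (11.72, nearest 12.43). Cyp2e1 was low in the CR mouse B4_5 (13.24, nearest 13.43). The CR-MF mouse BC4_11 was highest for the myeloid marker Ccr2 (6.995, nearest 5.636) and the stellate marker Colec11 (8.579, nearest 8.196).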

How the results depend on the processing

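No called difference changed sign under any alternative. Of the alternatives other than leaving out a mouse, quantile normalisation gave 2 calls for CR against C and 2 for CR-MF against C (1 each as reported) and 1 for CR-MF against CR (0 as reported). Without the filter there were 0 calls for CR against C and 2 for CR-MF against MF (7 as reported). The largest plate alone gave 2 for MF against CR (4 as reported) and 1 for CR-MF against MF, and its single call for CR-MF against C was Cyp2r1. Well row as a block gave 0 for CR against C and 0 for MF against CR. The animal number as a replicate block gave 0 for CR against C, 0 for CR-MF against C and 2 for CR-MF against MF (Cyp2c23 and Cyp2c54). With it the Cyp1b1 call for MF against CR ended (adjusted p = 0.119). Deviations of mice with the same number in different groups correlated at -0.255 to 0.357 (median 0.0942, 27 pairs). Those of mice with other numbers correlated at -0.562 to 0.528 (median -0.0235, 244 pairs). Whether the numbers pair the mice was not tested. Leaving out BC4_11 and BC4_15 together, an alternative chosen after seeing the data, gave 10 calls for CR-MF against MF: Cyp1a2, Cyp1b1, Cyp2d37-ps and Cyp2j9 were called in addition, and the Cyp2a22 call ended (adjusted p = 0.0726). Leaving out 1 mouse gave 0 to 3 calls for CR against C, 0 to 4 for CR-MF against C, 0 to 1 for CR-MF against CR, 3 to 6 for MF against CR and 2 to 9 for CR-MF against MF. For CR against C the count was 0 without A4_17, B4_1, B4_7 or B4_13, 2 without A4_1, A4_5 or BC4_15 and 3 without BC4_11. For CR-MF against C it was 0 without A4_1, A4_19, BC4_1, BC4_5 or BC4_13, 4 without B4_7, and 2 without any 1 of 10 others (A4_5, A4_9, A4_21, B4_5, C4_1, C4_9, C4_11, C4_15, BC4_3 and BC4_11). The 1 call for CR-MF against CR came without BC4_11. MF against C had 0 calls throughout. The cause of these changes was not tested. Some alternatives use fewer arrays or test more genes, and the part of this was not tested either.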

Other observations

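The members at the low end of a group were concentrated in a few mice. The CR-MF mouse BC4_11 was the lowest of its group for 16 of the 37 tested P450 genes (43.2%) and the highest for none, while over all genes tested it was lowest for 17.7% and highest for 21.8%. The C mouse A4_5 was lowest for 14 members (37.8%, all genes 15.5%), and the MF mouse C4_7 for 11 (29.7%, all genes 16.4%), as many as the MF mouse C4_1. At the other end, the C mouse A4_21 was highest for 14 members (37.8%, all genes 10.7%), the MF mouse C4_13 for 13 (35.1%, all genes 17.5%) and the CR-MF mouse BC4_13 for 13 (35.1%, all genes 9.93%). These mice were picked out after their values were seen.

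Cyp3a16, which was not tested, measured 5.10 in the MF mouse C4_9, and the next highest of the 27 mice was the C mouse A4_9 at 3.86.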
